A study of Mus musculus with 6 samples.

Results

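T cell anergy is the state in which a T cell has met its antigen but responds weakly when it meets it again. The genes described here are 10 that limit T cell activation and are tied to this state: the ubiquitin ligase genes Cblb, Cbl, Itch and Rnf128, the ligase adaptor gene Ndfip1, the diacylglycerol kinase genes Dgka and Dgkz, and the transcription factor genes Egr1, Egr2 and Egr3. They were chosen by name for these roles, and all 10 were found among the 25759 gene identifiers of the table. RNA was sequenced from adaptive regulatory T cells (aTreg), cells sorted for CD4 and for a green reporter of Foxp3, the transcription factor that defines regulatory T cells. There were 3 wild type (WT) libraries from C57BL/6 mice carrying the reporter, and 3 libraries from C57BL/6 reporter mice in which Cre expressed from Cd4 elements removes the bone morphogenetic protein receptor BMPR1a (labelled BMPR/CD4cre), here called BMPR1a-deficient. The mice of both groups were 8 to 12 weeks old. In both groups mixed lymph node and spleen cells were cultured for 3 days before the sort, with the mitogen ConA (2 µg/ml) and the cytokines IL-2 (10 ng/ml) and TGF-beta (3 ng/ml). Cre from Cd4 elements acts in the T cell lineage as a whole, so the other T cells of the culture would lack the receptor as well. Whether the libraries are from different animals or cultures is not in the labels. The p-values therefore reflect the spread among these samples alone, and that spread may be technical.

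Signals from the T cell receptor reach the nucleus through calcium and NFAT on one side and through diacylglycerol, protein kinase C theta and Ras on the other. Calcium without the second arm is known to induce an anergy programme in which EGR2 and EGR3 take part. Diacylglycerol kinases remove diacylglycerol, and the ligases CBL-B, c-CBL, ITCH and GRAIL (encoded by Rnf128) tag signalling proteins with ubiquitin. In regulatory T cells ITCH and NDFIP1 are known to restrain inflammatory behaviour. CBL-B is known to set the requirement for CD28 costimulation in mouse T cells.

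The unit is FPKM, fragments per kilobase of transcript, scaled to the mapped fragments of the library, so levels can be set against each other between genes. In WT aTreg the 10 genes spanned a wide range of levels, from 288 ± 23.2 FPKM for Dgka down to 0.459 ± 0.199 for Rnf128 (SD, n = 3). Ndfip1 at 256 ± 17.7 and Dgkz at 221 ± 24.0 FPKM came next, and the WT ranges of Dgka, Ndfip1 and Dgkz overlapped from one to the next. Each of these 3 genes stood above at least 95.4% of the tested genes. Cblb followed at 68.7 ± 2.72 FPKM, apart from its neighbours in the order. Itch, Cbl, Egr1 and Egr3 lay at 20.5 ± 0.991, 18.95 ± 2.37, 16.2 ± 5.55 and 13.4 ± 1.48 FPKM, again with overlap from one to the next. Egr2 was the lowest of the EGR genes in WT, at 4.84 ± 1.34 FPKM, with no overlap with Egr3. In BMPR1a-deficient aTreg Egr2 was at 11.2 ± 0.813 FPKM and its range overlapped that of Egr3.

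None of the anergy genes passed the test across all genes, and the clearest differences were in Egr2 and Cblb. All BMPR1a-deficient libraries had more Egr2 than the highest WT library, with a mean 2.32 times that of WT. Cblb was lower in each BMPR1a-deficient library, with a mean 63.2% of that of WT. For the other 7 tested genes the groups overlapped. Of the 10 genes, 9 reached the filter of a mean of at least 1 FPKM, and 0 of these were higher and 0 lower at an adjusted p under 0.05 (limma on log2(FPKM + 1), Benjamini-Hochberg over 13413 genes). In the same fit 0.746% of the tested genes were called higher and 0.321% lower, 100 and 43 genes (88 and 70 with quantile normalization). At an unadjusted p under 0.05 limma counted 2 of the 9, Egr2 and Cblb, against 15.2% of all tested genes. Groups without overlap were found for 2 of the 9, against 26.3% of all tested genes: for 1 of 9 on the higher side, against 15.9% of all tested genes, and for 1 of 9 on the lower side, against 10.4%. These shares are near the background. The median log2 fold change of the 9 was -0.14, with 3 positive and 6 negative, and that of all tested genes was 0.04.

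**Figure D1:**
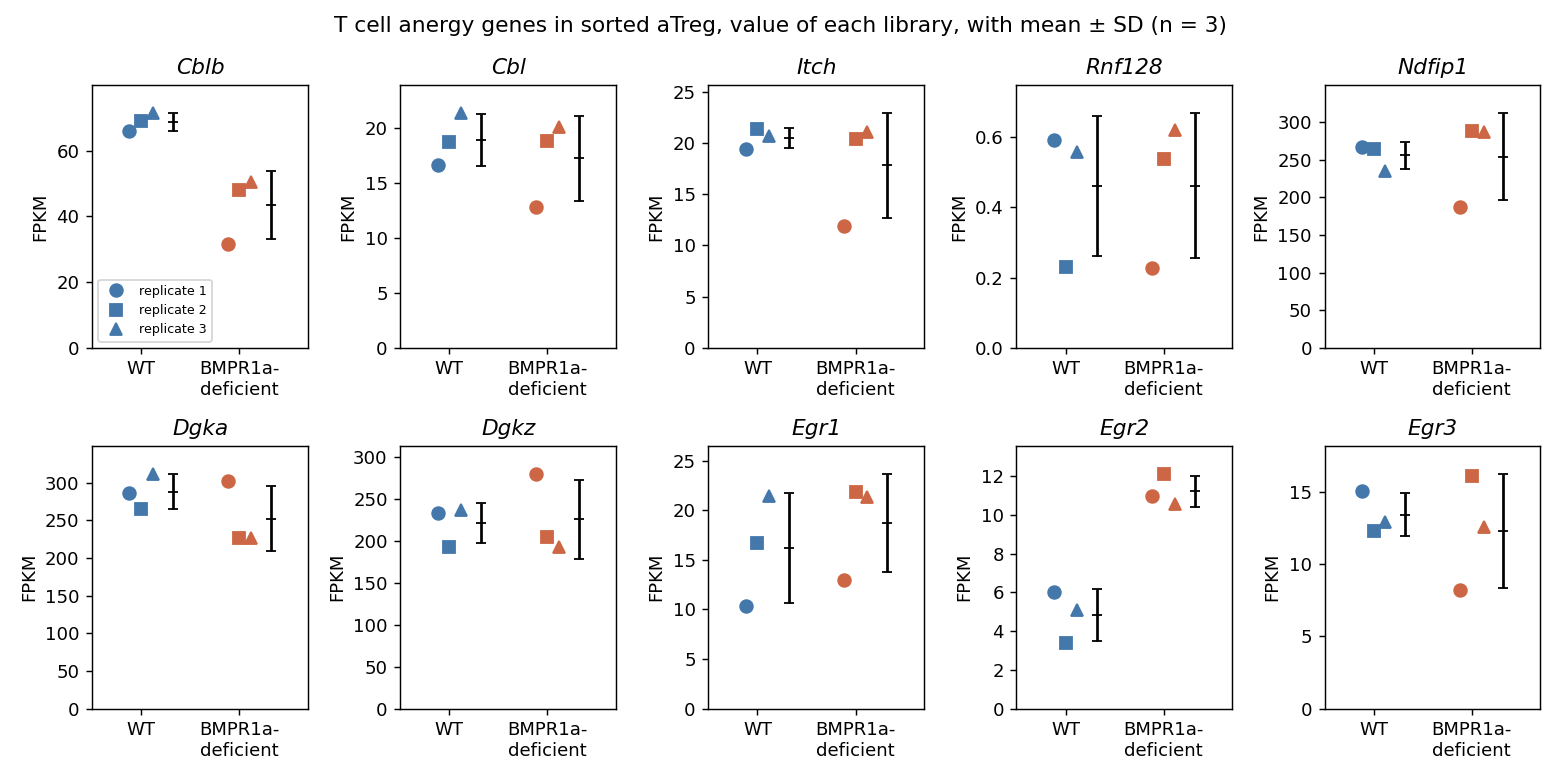
FPKM of each anergy gene in each library, with 1 panel per gene, symbols for the replicate number, blue for WT and orange for BMPR1a-deficient aTreg, and bars for the mean ± SD (n = 3). The groups stand apart in the panels of Egr2 (3.39 to 6.03 against 10.5 to 12.1) and Cblb (65.9 to 71.3 against 31.5 to 50.5), and BMPR1a-deficient replicate 1 is the lowest library in 6 of the 10 panels.

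Depth, purity and library quality bear on all of these values. The smallest steps in the FPKM of short simple genes pointed to about 29700000 to 37900000 fragments per WT library and 31800000 to 36300000 per BMPR1a-deficient library, an approximate estimate because the table gives no counts. Bmpr1a, the targeted gene, had 1.39, 2.34 and 1.31 FPKM in WT against 0.439, 0.720 and 0.691 in BMPR1a-deficient libraries. It was lower without overlap but not past the threshold (limma adjusted p = 0.184). The gene reached the filter of a mean of 1 FPKM only through its WT values, with means of 1.68 in WT and 0.617 in BMPR1a-deficient libraries. Without WT replicate 2 it did not reach the filter. All 10 markers of CD4 regulatory T cells were above 0, and their summed level was 2453 to 2653 FPKM in WT and 2325 to 2525 in BMPR1a-deficient aTreg. The summed level of 10 B cell markers was 37.5 to 71.0 FPKM in WT and 51.7 to 71.2 in BMPR1a-deficient libraries, and that of 12 myeloid markers 37.9 to 179 and 29.02 to 255. It was 391 to 504 and 393 to 610 FPKM for 10 dendritic cell markers, of which Cd209a was at 0 in every library. Only 2 of these 10 reached a mean of 1 FPKM, so nearly all of that sum came from 2 genes. The share of dendritic cells was not tested. For 10 CD8 T and NK cell markers the summed level was 109 to 175 FPKM in WT and 61.1 to 132 in BMPR1a-deficient libraries. Of the CD8 T and NK cell markers 5 were tested, 3 of them positive, and 0 passed, with a median log2 fold change of 0.21. At an unadjusted p under 0.05 limma counted 2 of the 5 (40%), against 15.2% of all tested genes. Cd8a, a chain of CD8 from this list, is named here after its values were seen. It was higher in each BMPR1a-deficient library, at 13.8, 17.2 and 29.1 FPKM against 11.7, 9.56 and 8.80 in WT (limma adjusted p = 0.236). Most of the summed level of its list came from other genes. That sum had its highest value in WT and its lowest in the BMPR1a-deficient group. The share of CD8 T cells was not tested. BMPR1a-deficient replicate 1 stood apart: its 13 mitochondrially encoded mRNAs summed to 5335 FPKM, against 44657 and 44713 in the other libraries of its group and 50442 to 53789 in WT. It was the lowest of the 6 libraries for 6 of the 10 anergy genes and for 38.0% of all tested genes, and the highest of the 6 for 1 of the 10 and for 28.5% of all tested genes. In bulk RNA, fewer cells of a type and less RNA per cell cannot be told apart.

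Egr2 encodes a zinc finger factor that is induced by T cell receptor signals and, in mouse T cells, is known for directing anergy genes. The gene lies on chromosome 10 (ENSMUSG00000037868, 67535475 to 67542188 on the plus strand in GRCm38, 7 annotated transcripts). Its level was 6.03, 3.39 and 5.11 FPKM in the WT libraries and 10.98, 12.1 and 10.5 in the BMPR1a-deficient libraries. Every BMPR1a-deficient value lay well above the highest WT value, and the library with few mitochondrial transcripts lay between its 2 partners. The log2 fold change was 1.09 (SE 0.187, 95% interval 0.63 to 1.55), with an unadjusted p of 0.00111 and an adjusted p of 0.0691 in limma. The two-sided exact permutation p was 0.1, and with 3 libraries a group it cannot be smaller. Without BMPR1a-deficient replicate 1 the log2 fold change was 1.10 (limma adjusted p = 0.0998). The values correspond to roughly 307 to 1159 fragments per library. The threshold was passed when only protein-coding genes were tested (limma adjusted p = 0.0239) and with limma's sample weights (adjusted p = 0.0130), and the adjusted p lay between 0.0130 and 0.250 over all alternatives. Myeloid and B cells also express Egr2, and the part in this difference of other cell types, whose summed marker levels overlapped between the groups, was not tested.

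EGR genes are textbook immediate early genes, switched on through CArG boxes that bind the serum response factor. The bases around such a box before a start of Egr2 are shown for this reason. They are the 30 bases chr10:67537787-67537816 on the plus strand, taken from RefSeq (GRCm38.p6), before the GENCODE M21 start of Egr2 at 67537869. GENCODE M21 has no exon in them, but its Egr2 gene begins further upstream, at 67535475, so the box lies inside the span of the gene. RefSeq also lists Egr2 starts further upstream, whose exon ends were not used here. Capitals mark the CArG box, whose first base lies 72 bases before the start.
Egr2: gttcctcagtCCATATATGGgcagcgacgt
A CArG box on either strand was found in the 250 bases before 4 of the 5 listed starts of Egr2, 3 of which share most of their window, and in 1.47% of 32851 such windows in the RefSeq promoter table. The table held 6 of the 10 anergy genes with 14 starts, and the other gene with a CArG box was Rnf128. The EGR motif, searched as GCGNGGGCG on both strands, was found in 1 of the 6 genes, Cbl, and in 4.70% of all windows. The 30 bases that hold it are shown because CBL ligase genes are discussed as EGR targets in T cells. They are chr9:44234047-44234076 on the minus strand (RefSeq, GRCm38.p6), with the motif, read on the opposite strand, in capitals.
Cbl: ctccggcgcgCGCCCCCGCgttgcgccggc
The window before the listed start of Cblb held neither motif. A match is a description of letters, and binding was not measured.

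Egr1 and Egr3, the other EGR factors, did not separate the groups. Egr3 encodes the factor closest to EGR2 in T cell function and lies on chromosome 14. Its level was 15.1, 12.2 and 12.9 FPKM in WT and 8.20, 16.1 and 12.5 in BMPR1a-deficient libraries, with the WT values inside the BMPR1a-deficient range. The log2 fold change was -0.16 (95% interval -0.73 to 0.42, limma adjusted p = 0.756), and it was 0.08 without BMPR1a-deficient replicate 1. Egr1, which encodes a growth factor and antigen receptor responsive factor, varied widely inside WT, with 10.4, 16.7 and 21.4 FPKM. In BMPR1a-deficient libraries it was at 13.02, 21.8 and 21.4 FPKM, so both groups covered nearly the same range. Its log2 fold change was 0.22 (95% interval -0.53 to 0.98, limma adjusted p = 0.740), and -0.05 without WT replicate 1. Inside the same libraries Egr2 stood apart from Egr3, and the log2 ratio of Egr2 to Egr3 was -1.19, -1.59 and -1.18 in WT against 0.38, -0.38 and -0.23 in BMPR1a-deficient libraries. The groups of this ratio did not overlap and differed by 1.25. Against Egr1 this did not hold: the groups of the log2 ratio of Egr1 to Egr2 overlapped, with a difference of -0.87.

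The partners of the EGR factors gave 0 calls among 8 tested of 11 listed genes (median log2 fold change -0.01), with 1 (12.5%) at an unadjusted p under 0.05 in limma, against 15.2% of all tested genes. That gene was Nab2, which encodes a corepressor that binds EGR1 and EGR2 and is itself known as an EGR target. It was at 34.9, 32.9 and 33.0 FPKM in WT and 24.8, 28.1 and 25.3 in BMPR1a-deficient libraries, lower in each, with a log2 fold change of -0.36 (SE 0.0913, limma adjusted p = 0.160). Elk3, which encodes an ETS factor that works with the serum response factor, was at 29.2 ± 3.35 and 37.1 ± 7.13 FPKM (SD, n = 3, limma adjusted p = 0.430). Of 20 immediate early genes 17 were tested, and 1 rose and 0 fell (against 0.746% and 0.321% of all tested genes), with a median log2 fold change of 0.03. At an unadjusted p under 0.05 limma counted 6 of the 17 (35.3%), against 15.2% of all tested genes. Nr4a3, an orphan nuclear receptor gene induced by T cell receptor signals, rose to 43.1 ± 3.34 FPKM from 24.4 ± 1.66 in WT (SD, n = 3 a group, with a log2 fold change of 0.79 and limma adjusted p = 0.0380), a call kept in 1 and lost in 5 of the 6 fits with a library left out. Positive values numbered 10 of the 17. Klf10 lay at the high end with a log2 fold change of 0.89 (limma adjusted p = 0.0525). Zfp36 and Fos lay at the low end with -1.48 and -0.90 (limma adjusted p = 0.0995 and 0.315). Klf10, Zfp36 and Fos were picked after their values were seen.

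**Figure D2:**
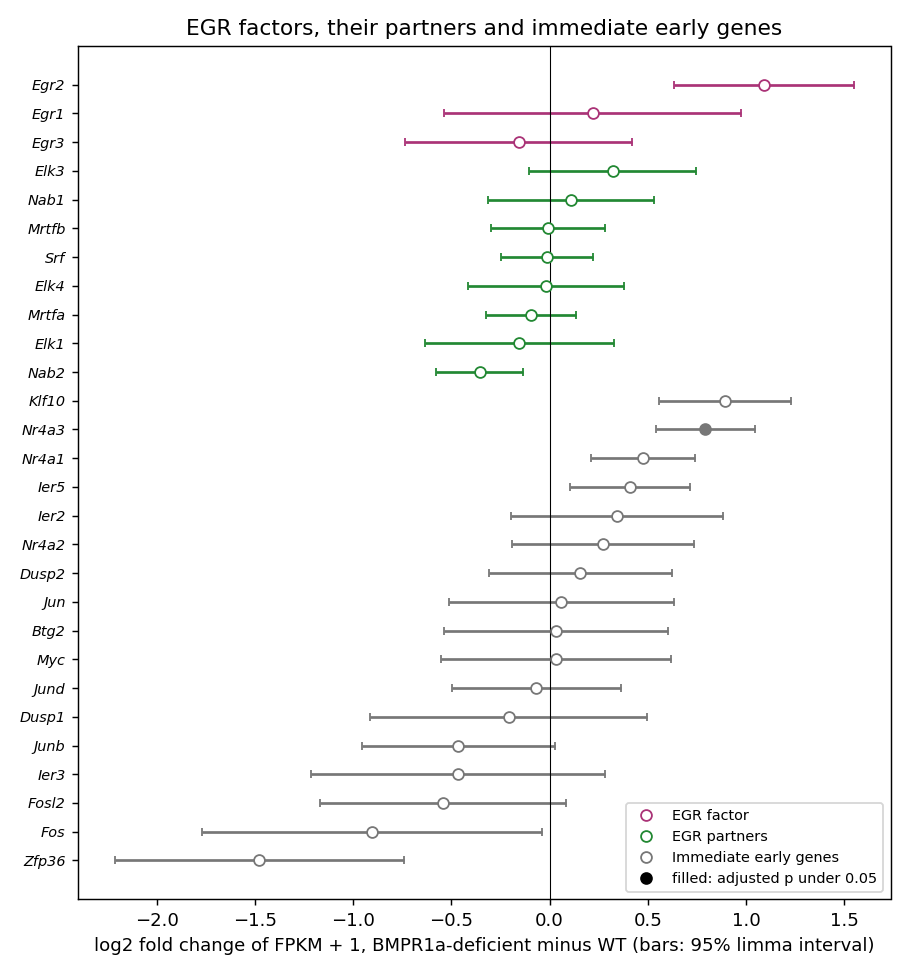
Log2 fold change of FPKM + 1, BMPR1a-deficient minus WT, with the 95% limma interval, for the 3 EGR factors (purple), 8 EGR partners (green) and 17 immediate early genes (grey), with filled points for an adjusted p under 0.05. Nr4a3 is the only filled point, Egr2 lies at 1.09 at the top of its group, and the immediate early genes spread from -1.48 to 0.89 around a median of 0.03.

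Genes linked to EGR2 and EGR3 in T cells gave 2 calls higher and 0 lower among 14 tested. The list was drawn up with earlier results of these data known. Of all tested genes 0.746% were called higher and 0.321% lower. At an unadjusted p under 0.05 limma counted 4 of the 14 (28.6%), against 15.2% of all tested genes. Tnfrsf9, which encodes the costimulatory receptor 4-1BB, was at 129, 142 and 127 FPKM in WT and 224, 263 and 242 in BMPR1a-deficient libraries (log2 fold change 0.87, limma adjusted p = 0.0380). The chemokine gene Ccl1 was at 0.714, 3.32 and 0.401 FPKM in WT and 16.96, 19.4 and 19.5 without the receptor (log2 fold change 3.17, limma adjusted p = 0.0384). Both were higher in each BMPR1a-deficient library, as Egr2 was. The median of the list was -0.04, with 6 of 14 positive, near the 0.04 of all tested genes, so the list as a whole did not lie on the side of these 2 genes. Each of the 2 calls held in 1 of the 6 fits with a library left out. The call of Ccl1, whose WT values lie near the pseudocount of 1, was also lost with a pseudocount of 0.1 (limma adjusted p = 0.0600) and with no filter on low values (0.0683).

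Among all tested genes, those whose log2(FPKM + 1) tracked Egr2 most closely over the 6 libraries were Hc, Eno2 and Acsbg1. After each gene was centred on its own mean, its largest distance from Egr2 in any library was 0.16, 0.17 and 0.18. Acsbg1, which encodes an acyl-CoA synthetase, was at 11.02, 7.69 and 9.62 FPKM in WT and 19.2, 20.3 and 19.0 in BMPR1a-deficient libraries. Eno2, the neuronal form of the glycolytic enzyme enolase, was at 2.02, 1.07 and 2.06 and at 4.17, 4.23 and 4.50. Hc, which encodes complement component C5, was at 0.602, 0.162 and 0.371 FPKM in WT and 1.81, 1.91 and 1.92 in BMPR1a-deficient libraries. It reached the filter of a mean of 1 FPKM only through the BMPR1a-deficient group, and its values lie near the pseudocount of 1. All 3 shared with Egr2 a low value in WT replicate 2 and separate groups, which the choice by likeness fixes.

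Cblb encodes the ligase CBL-B, which in mouse T cells sets the requirement for CD28 costimulation. The gene lies on chromosome 16 (ENSMUSG00000022637, 52031225 to 52208048 on the plus strand in GRCm38). Its level was 65.9, 68.8 and 71.3 FPKM in WT and 31.5, 48.1 and 50.5 in BMPR1a-deficient libraries. The WT values were close together, all BMPR1a-deficient values were lower, and the lowest was that of replicate 1, the library with few mitochondrial transcripts. The log2 fold change was -0.68 (SE 0.192, 95% interval -1.15 to -0.21), with an unadjusted p of 0.0121 and an adjusted p of 0.193 in limma, and the exact two-sided permutation p was 0.1. Without BMPR1a-deficient replicate 1 the log2 fold change was -0.47 (limma adjusted p = 0.0576). With limma's sample weights, which gave that library a weight of 0.117 against 0.568 to 4.18 for the others, it was -0.50 and passed the threshold (adjusted p = 0.0230). Over all alternatives the adjusted p lay between 0.0230 and 0.529.

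Cbl encodes c-CBL, the near relative of CBL-B that acts on receptor tyrosine kinases and on the T cell receptor complex. Its level was 16.7, 18.8 and 21.4 FPKM in WT and 12.9, 18.8 and 20.1 in BMPR1a-deficient libraries. Replicates 2 and 3 of the BMPR1a-deficient group lay inside the WT range and replicate 1 below it. Its log2 fold change was -0.14 (95% interval -0.60 to 0.32, limma adjusted p = 0.722), and 0.04 without BMPR1a-deficient replicate 1. A ratio of 2 genes inside one library does not depend on the scaling of that library, apart from the pseudocount. The log2 ratio of Cblb to Cbl was 1.92, 1.82 and 1.69 in WT against 1.23, 1.31 and 1.29 in BMPR1a-deficient libraries. Here BMPR1a-deficient replicate 1 lay beside its partners, the groups did not overlap, and they differed by 0.54 on the log2 scale, from a mean of 1.81 ± 0.115 to 1.27 ± 0.0433 (SD, n = 3).

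Of 15 other CBL family members and CBL regulators 13 were tested and 0 passed, with a median of -0.02. At an unadjusted p under 0.05 limma counted 4 of the 13 (30.8%), against 15.2% of all tested genes. Sla, which encodes the adaptor SLAP that brings c-CBL to the T cell receptor, was at 185, 213 and 213 FPKM in WT and 99.9, 135 and 137 in BMPR1a-deficient libraries (log2 fold change -0.72, limma adjusted p = 0.122). Sh3kbp1, which encodes the CBL-binding adaptor CIN85, was at 133, 164 and 158 and at 96.3, 114 and 109 FPKM (-0.51, limma adjusted p = 0.159). Like Cblb, both were lower in each BMPR1a-deficient library and lowest in replicate 1.

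Itch encodes a ligase of the NEDD4 family that marks JUNB for degradation. Its level was 19.4, 21.3 and 20.7 FPKM in WT and 11.9, 20.4 and 21.1 in BMPR1a-deficient libraries. Replicate 1 lay far below the other 5 libraries, which covered one narrow range. With all libraries the log2 fold change was -0.23 (95% interval -0.77 to 0.31, limma adjusted p = 0.619), and without replicate 1 it was 0.02. Ndfip1 encodes a membrane adaptor that activates ITCH and its relatives. It was at 268, 264 and 235 FPKM in WT and 187, 288 and 287 in BMPR1a-deficient libraries, with replicate 1 below and the others above all WT values. Its log2 fold change was -0.03 (95% interval -0.52 to 0.45, limma adjusted p = 0.940) and 0.17 without replicate 1. Of 12 other NEDD4 family members and adaptors 10 were tested, 0 passed, and 8 were positive (median 0.12). At an unadjusted p under 0.05 limma counted 2 of the 10 (20%), against 15.2% of all tested genes. Wwp2 was at 16.4 ± 0.183 and 21.5 ± 2.71 FPKM (SD, n = 3, limma adjusted p = 0.220), and Smurf2, which encodes a ligase that acts on TGF-beta receptors and SMAD proteins, at 11.8 ± 0.871 and 17.1 ± 3.26 (limma adjusted p = 0.245). Both were higher in each BMPR1a-deficient library, and Smurf2 passed the threshold without BMPR1a-deficient replicate 1 (limma adjusted p = 0.0468).

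Rnf128 encodes GRAIL, a ligase known for its link to anergy in CD4 T cells. It was at 0.591, 0.230 and 0.557 FPKM in WT and 0.228, 0.537 and 0.620 in BMPR1a-deficient libraries, with both groups over the same range. These values correspond to roughly 19.4 to 61.9 fragments per library. The gene did not reach the filter, so it has no adjusted p in the main fit. Of 15 GRAIL partners and other ligases of anergy 14 were tested and 0 passed, with a median of 0.02. At an unadjusted p under 0.05 limma counted 2 of the 14 (14.3%), against 15.2% of all tested genes. Socs3, which encodes an inhibitor of cytokine signalling, was at 47.5, 29.2 and 34.8 FPKM in WT and 9.33, 24.5 and 21.1 in BMPR1a-deficient libraries, lower in each (log2 fold change -1.06, limma adjusted p = 0.282). Traf3, an adaptor gene of TNF receptor signalling, was at 13.7 ± 1.20 and 16.9 ± 1.25 FPKM (SD, n = 3, limma adjusted p = 0.292).

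**Figure D3:**
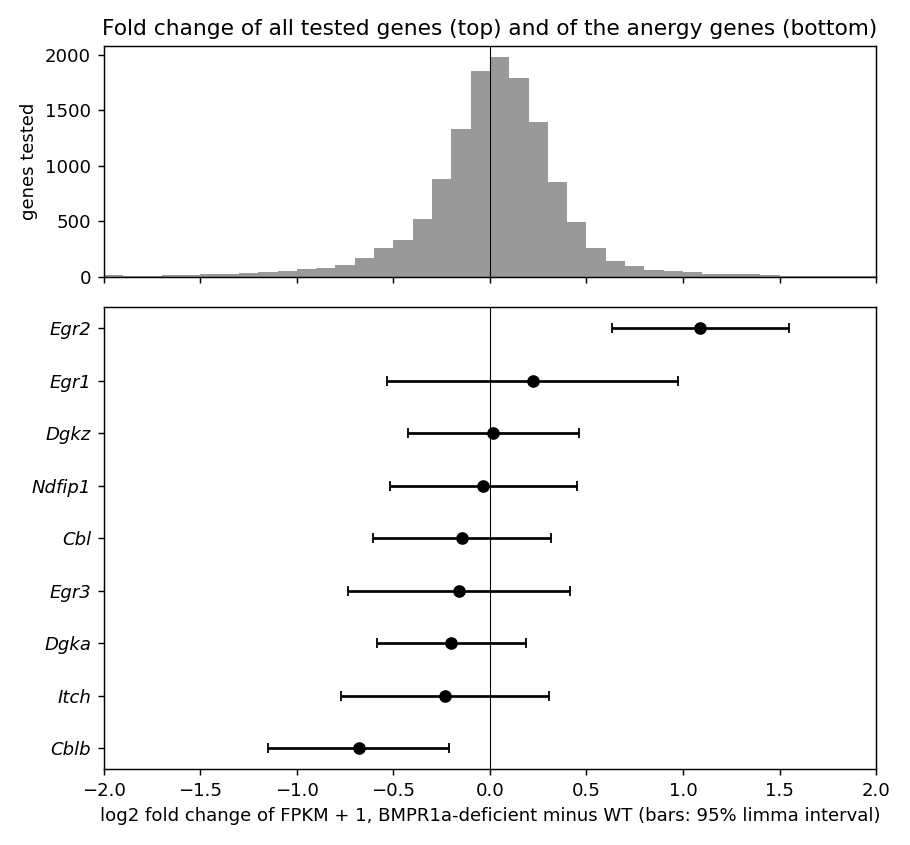
Top, number of tested genes in steps of 0.1 of the log2 fold change, BMPR1a-deficient minus WT, of which 252 lie beyond 2 in size and are not drawn. Bottom, the 9 tested anergy genes with their 95% limma intervals on the same axis, where only those of Egr2 (0.63 to 1.55) and Cblb (-1.15 to -0.21) leave out 0.

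Dgka and Dgkz encode the diacylglycerol kinases alpha and zeta, the main forms in T cells, which turn the second messenger diacylglycerol into phosphatidic acid. Dgka was at 286, 265 and 312 FPKM in WT and 302, 227 and 227 in BMPR1a-deficient libraries. BMPR1a-deficient replicates 2 and 3 lay below all WT values, and replicate 1 lay among them. The log2 fold change was -0.20 (95% interval -0.59 to 0.19, limma adjusted p = 0.569). It was -0.34 without BMPR1a-deficient replicate 1 (limma adjusted p = 0.161) and -0.37 with limma's sample weights, where it passed the threshold (adjusted p = 0.0458), but -0.05 with quantile normalization (limma adjusted p = 0.903). Dgkz was at 233, 193 and 236 FPKM in WT and 280, 205 and 193 in BMPR1a-deficient libraries, with the highest value in replicate 1. Its log2 fold change was 0.02 (95% interval -0.42 to 0.46, limma adjusted p = 0.967) and -0.15 without BMPR1a-deficient replicate 1. Exons of the antisense genes Pmel and Gm9821 overlap those of Dgka and Dgkz by 105 and 222 bases. Strand handling is not given in the sources used here. Pmel was at 1.78 ± 0.238 and Gm9821 at 20.6 ± 4.46 FPKM in WT (SD, n = 3), far lower than the kinases. Whether reads of the overlapping bases were counted for the wrong gene was not tested.

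Inside each library the balance of the kinases lay more towards Dgkz in BMPR1a-deficient aTreg. The log2 ratio of Dgka to Dgkz was 0.30, 0.46 and 0.40 in WT against 0.11, 0.15 and 0.23 in BMPR1a-deficient libraries. The groups did not overlap, with a difference of -0.22 on the log2 scale. With quantile normalization the groups of this ratio overlapped, with a difference of -0.16 and an exact permutation p of 0.2. The ratios of Cblb to Cbl, Dgka to Dgkz and Egr2 to Egr3 each gave an exact two-sided permutation p of 0.1, the smallest possible here, and 0.1 after adjustment over the 3 ratios. Separate groups were found for 27.9% of all ratios between tested genes, and for 16 of the 36 ratios between the 9 tested anergy genes, ratios that share genes and so are not independent. Of these 16, 14 contain Egr2 or Cblb, and the others are Dgka to Dgkz and Cbl to Egr1.

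**Figure D4:**
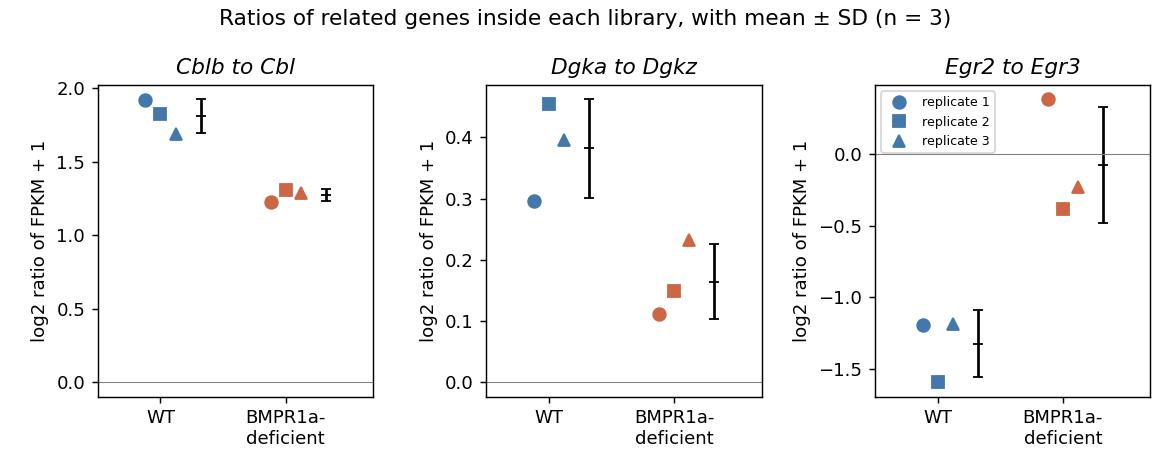
Log2 ratio of FPKM + 1 of Cblb to Cbl, Dgka to Dgkz and Egr2 to Egr3 in each library, with symbols for the replicate number, blue for WT, orange for BMPR1a-deficient aTreg and bars for the mean ± SD (n = 3). The groups are separate in all 3 panels, by -0.54, -0.22 and 1.25 between the means, and BMPR1a-deficient replicate 1 lies close to its group in the first 2 and above it in the third.

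Of 20 other diacylglycerol kinases and genes of the diacylglycerol arm 17 were tested and 0 passed, with 8 positive values and a median of -0.03. At an unadjusted p under 0.05 limma counted 8 of the 17 (47.1%), against 15.2% of all tested genes. Dgkh, the kinase form eta, was at 2.05, 2.35 and 2.16 FPKM in WT and 3.96, 3.05 and 3.42 in BMPR1a-deficient libraries, higher in each (log2 fold change 0.49, limma adjusted p = 0.154). Rasgrp4, which encodes a Ras activator that binds diacylglycerol, was at 15.8, 10.1 and 11.03 and at 19.0, 22.4 and 19.8 FPKM, also higher in each (0.70, limma adjusted p = 0.155). Of 13 NFAT and calcineurin genes 11 were tested and 0 passed, with a median of 0.02. At an unadjusted p under 0.05 limma counted 2 of the 11 (18.2%), near the 15.2% of all tested genes. Ppp3cc, which encodes a catalytic subunit of calcineurin, was at 34.4, 35.2 and 38.2 FPKM in WT and 13.3, 25.9 and 21.2 in BMPR1a-deficient libraries (log2 fold change -0.85, limma adjusted p = 0.188). Rcan1, a calcineurin inhibitor gene induced by NFAT, was at 3.76 ± 0.292 and 5.09 ± 0.520 FPKM (SD, n = 3, limma adjusted p = 0.236).

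Among 24 substrates of these ligases and targets of T cell receptor signals, all tested, 1 rose and 0 fell, with a median of -0.05. Of all tested genes 0.746% were called higher and 0.321% lower. At an unadjusted p under 0.05 limma counted 6 of the 24 (25%), against 15.2% of all tested genes. The gene that rose was Tgfbr1, which encodes a receptor kinase for TGF-beta. It was at 8.83, 9.02 and 7.95 FPKM in WT and 20.7, 24.9 and 22.5 in BMPR1a-deficient libraries (log2 fold change 1.30, limma adjusted p = 0.0116). Of 20 surface markers of anergic CD4 T cells and other anergy genes 19 were tested, with a median of -0.06. Here 1 rose and 1 fell, against the same 0.746% and 0.321% of all tested genes. At an unadjusted p under 0.05 limma counted 5 of the 19 (26.3%), against 15.2%. Pdcd1, the PD-1 gene, an inhibitory receptor of T cells, rose from a mean of 16.7 ± 2.83 to one of 49.8 ± 13.5 FPKM (SD, n = 3, limma adjusted p = 0.0450). Btla, another inhibitory receptor gene, fell from 25.9 ± 1.85 to 14.9 ± 1.07 FPKM (limma adjusted p = 0.0388). Tgfbr1 was called in 3 of the 6 fits with a library left out, and Pdcd1 and Btla in 1 each. The call of Pdcd1 was also lost with median-of-ratios scaling (limma adjusted p = 0.0574) and with no filter on low values (0.0736).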

How the data were processed

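Gene expression was measured in 3 WT and 3 BMPR1a-deficient libraries of sorted aTreg. The deposited values are FPKM, 1 column per library. TopHat2, Cufflinks and Cuffdiff and the build GRCm38.p4 are named per the submitters' processing notes. Their versions and settings, the annotation, the handling of strand and any scaling between libraries are not given in those notes or the labels. Symbols matched 24876 of 25759 identifiers (96.6%, GENCODE M21 on GRCm38) and every column was assigned to a library by its name. The values of no 2 libraries were identical. Depth was estimated from 4166 genes, within a search range of 5000000 to 100000000 fragments.

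Genes with a mean of at least 1 FPKM entered a linear model in limma (version 3.58.1, R version 4.3.3) of log2(FPKM + 1), BMPR1a-deficient minus WT, with eBayes and a trend, two-sided, Benjamini-Hochberg at 0.05. This scale understates the change of low genes. The script was tested on simulated data. Exact permutation tests used scipy 1.17.1. The members and gene lists were chosen with earlier results of these data known. Named from each list are the called genes, at most 3 in order of p, and where there was no call the 2 genes with the lowest p. The closing section gives 19 alternatives.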

Additional observations from a re-analysis of the deposited data

How the results depend on the processing

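Depth is only estimated, and with 3 libraries a group small differences cannot be shown. Under 19 alternatives the log2 fold changes of Egr2, Cblb and Dgka kept their direction, and the adjusted p of all members stayed above 0.05 except as given here. With limma's sample weights 1 member was called higher, Egr2 (1.06), and 2 lower, Cblb (-0.50) and Dgka (-0.37), and with protein-coding genes only 1 was called higher, Egr2 (1.09). Near 0 the direction turned: with sample weights for Itch (0.004), Ndfip1 (0.19), Dgkz (-0.17) and Egr3 (0.11), with quantile normalization for Ndfip1 (0.093), and for Dgkz with upper-quartile (-0.027) and median-of-ratios scaling (-0.017). Over the fits with 1 library fewer, the log2 fold change ran from 0.90 to 1.24 for Egr2, from -0.80 to -0.47 for Cblb, from -0.34 to -0.13 for Dgka, from -0.26 to 0.043 for Cbl, from -0.37 to 0.019 for Itch, from -0.14 to 0.17 for Ndfip1, from -0.15 to 0.12 for Dgkz, from -0.049 to 0.45 for Egr1 and from -0.36 to 0.083 for Egr3. The cause was not tested. The ratio difference of Egr2 to Egr3 was 0.84 with a pseudocount of 5. With quantile normalization the ratio difference of Dgka to Dgkz was -0.16 and its groups overlapped.

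Of all tested genes 833 were higher and 407 lower with sample weights, 202 and 94 with protein-coding genes only, and 5 and 5 with a replicate block. The lower count was 27 with a filter of 5 FPKM and 70 with quantile normalization. Over the fits without a library there were 15 to 150 higher and 7 to 81 lower genes. Among the genes of the pathway lists, 5 higher and 1 lower, the counts were 24 and 10 with sample weights, 9 and 2 with protein-coding genes only, 0 and 0 with a replicate block and 3 higher with no filter. The call of Pdcd1 was lost with median-of-ratios scaling and with no filter, and that of Ccl1 with a pseudocount of 0.1 and with no filter. The counts among the pathway list genes were 0 to 5 higher and 0 to 3 lower over the fits without a library. The replicate block called 0 members (adjusted p = 0.188 for Egr2 and 0.241 for Cblb). Libraries with the same number in both groups hardly deviated together (correlations of 0.01, 0.06 and 0.05 across genes). With 3 libraries a group these correlations cannot settle whether libraries of the same number share a culture or a sort. The correlation was highest with the own number for WT replicates 2 and 3 but not for replicate 1.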
